A study of Mus musculus with 10 samples.

Results

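The Ces2 carboxylesterases are a family of 7 mouse genes, *Ces2a*, *Ces2b*, *Ces2c*, *Ces2e*, *Ces2f*, *Ces2g* and *Ces2h*, which were taken by Entrez identifier from a table of read counts for 16647 genes in mouse liver. All 7 were listed and 6 had enough counts to be tested. RNA-seq had been performed on livers of 10 male humanized PXR-CAR-CYP3A4/3A7 mice, a model humanized for the nuclear receptors PXR and CAR and for CYP3A4/3A7. All animals were fed a high-fat diet, with 30% fat, from an age of 10 to 15 weeks; after 8 weeks of diet, 5 mice received MI-883 at 5 mg/kg and 5 control mice received the vehicle (DMSO, PEG300 and corn oil), by oral gavage 3 times a week for 4 weeks. MI-883 was developed in the study as a ligand of both human receptors, an agonist of CAR and an antagonist of PXR. The compared groups thus share the strain, the human genes and the diet, and differ in the compound. The promoters that drive the human receptors, and the mouse genes removed from the model, were not given in the sources used here.

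Carboxylesterases are serine hydrolases of the endoplasmic reticulum that cleave ester, amide and carbamate bonds. They activate or inactivate ester drugs and prodrugs, and several of them hydrolyse acylglycerols and other lipid esters in liver and intestine. Humans have a single *CES2* gene, whereas in the mouse the family has expanded into a row of neighbouring genes. CAR and PXR are ligand-activated transcription factors that control genes of drug metabolism in hepatocytes, and they bind DNA as heterodimers with RXR at repeated AGGTCA-like half-sites.

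The 7 genes lie on the plus strand of chromosome 8 and span 286.4 kb, from 104734003 to 105020410 (GRCm38). *Ces2a* comes first (104734003 to 104741634) and is separated by 86.9 kb from *Ces2b* (104828494 to 104840093). *Ces2c* (104847068 to 104854483) follows *Ces2b* after 7.0 kb, and *Ces2e* (104926260 to 104934672) lies 71.8 kb further on. *Ces2f* (104947355 to 104961130), *Ces2g* (104961596 to 104969537) and *Ces2h* (105000830 to 105020410) close the row. The Entrez identifiers, in this order, are 102022, 234669, 234671, 234673, 71903, 72361 and 436059. The coding sequences are 1668 to 1683 bases long and are split over 12 exons, or 13 in *Ces2f*. In pairwise alignments of the coding sequences, identity ranged from 76.7% between *Ces2f* and *Ces2h* to 92.1% between *Ces2b* and *Ces2c*. No stretch of 100 bases in a member's exons recurred in another member, so that longer reads can be assigned to one of them. In *Ces2c*, 16.0% of such stretches recurred outside the family, mostly in the pseudogene *Ces2d-ps*, and in *Ces2a* 10.2% recurred in the pseudogene *Gm7208*. Neither pseudogene was analysed here, and the counts of *Ces2a* and *Ces2c* are uncertain to the extent that reads from these stretches were shared or discarded.

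The 250 bases before the start of transcription that the RefSeq promoter table uses are shown for *Ces2c*, the member with the largest log2 fold change after MI-883 treatment, and for *Ces2e*, whose log2 fold change was nearest 0. In CPM the difference was larger in *Ces2a*, and the log2 fold changes of *Ces2a* and *Ces2c* were not shown to differ. Those of *Ces2a* and *Ces2g*, the other members that rose, were added after their values had been seen. The sequences are from RefSeq (GRCm38.p6, plus strand): *Ces2a* at chr8:104733753-104734002, *Ces2c* at chr8:104846818-104847067, *Ces2e* at chr8:104926010-104926259 and *Ces2g* at chr8:104961468-104961717. For *Ces2g* that start lies downstream of the gene start given above, so that the latter part of its window, with both marked runs, is inside the gene as given there. Capitals mark AGGTCA, ACTTTGCCC and CAAATTCCTGC.
Ces2a: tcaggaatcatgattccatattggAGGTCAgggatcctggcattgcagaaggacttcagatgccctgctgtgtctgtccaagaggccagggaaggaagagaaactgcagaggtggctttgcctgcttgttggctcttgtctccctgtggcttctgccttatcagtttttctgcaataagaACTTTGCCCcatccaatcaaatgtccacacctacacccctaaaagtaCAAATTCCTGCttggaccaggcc
Ces2c: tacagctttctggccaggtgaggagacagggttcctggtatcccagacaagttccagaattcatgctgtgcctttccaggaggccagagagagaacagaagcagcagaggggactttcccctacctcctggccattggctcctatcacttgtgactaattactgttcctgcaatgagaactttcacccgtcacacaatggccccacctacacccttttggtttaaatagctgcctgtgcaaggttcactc
Ces2e: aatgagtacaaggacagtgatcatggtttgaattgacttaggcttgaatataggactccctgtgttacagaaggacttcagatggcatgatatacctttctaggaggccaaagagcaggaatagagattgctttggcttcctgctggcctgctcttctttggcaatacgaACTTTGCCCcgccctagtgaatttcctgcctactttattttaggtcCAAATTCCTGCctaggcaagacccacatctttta
Ces2g: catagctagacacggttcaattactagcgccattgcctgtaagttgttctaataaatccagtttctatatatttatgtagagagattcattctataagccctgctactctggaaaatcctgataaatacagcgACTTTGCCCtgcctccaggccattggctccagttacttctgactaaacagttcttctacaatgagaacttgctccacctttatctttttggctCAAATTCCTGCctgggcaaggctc

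Promoters of 6 members were found in the RefSeq table, all but that of *Ces2b*, and were searched on both strands. The half-site AGGTCA occurred in 2 of the 6, *Ces2a* and *Ces2h*, and in 14.0% of 32851 mouse promoters of the same length. Direct repeats of AGNTCA, in which N is any base, with a spacer of 4 bases (DR4) or 3 bases (DR3) were present in none of the 6 and occurred in 0.103% and 0.0517% of all promoters. The TATA box TATAAA was found in none of the 6 and in 12.4% of all promoters. After the sequences had been read, the longest run shared by at least 4 of them and the longest other run shared by at least 3 were searched. ACTTTGCCC occurred in 4 of the 6 (*Ces2a*, *Ces2e*, *Ces2f* and *Ces2g*) and in 0.222% of all promoters. CAAATTCCTGC occurred in *Ces2a*, *Ces2e* and *Ces2g*, and in 0.0244% of all promoters. Because these runs were chosen for being shared by members, their counts among the 6 are no measure of enrichment over all promoters. As exact matches, both runs were in *Ces2e* as well as in *Ces2a* and *Ces2g*, and neither was in *Ces2c*. Similar sequences were not counted, such as gagaactttcaccc in *Ces2c*. ACTTTGCCC began 70 bases upstream of the start in *Ces2a*, 80 in *Ces2e* and 117 in *Ces2g*. Whether these are the same element was not tested. Promoter identity was 67.5% between *Ces2a* and *Ces2c*, 69.9% between *Ces2a* and *Ces2e* and 67.4% between *Ces2c* and *Ces2g*. Over all pairs of the 6 it ranged from 53.2% between *Ces2c* and *Ces2h* to 74.5% between *Ces2a* and *Ces2f*. These matches describe the letters in a short window and do not show that a protein binds there.

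The libraries of control livers held between 24014461 and 36221514 counts, and those of MI-883-treated livers between 23513665 and 28349963. *Cyp2b10*, the classic CAR target gene of mouse liver, was at 36.5 ± 9.10 (S.D.) counts scaled to a library total of 1000000 (CPM) in controls and rose to 1019.5 ± 298.7 CPM, with a log2 fold change of 4.80 (SE 0.247, edgeR adjusted P = 3.63e-07, n = 5 per group). The hepatocyte markers *Alb*, *Ttr*, *Cps1* and *Apob* summed to 64601.2 to 73970.6 CPM in controls and 56975.6 to 67116.0 CPM after MI-883. Summed markers of other liver cells overlapped between groups, at 4.45 to 8.16 and 5.53 to 11.6 CPM for bile duct, 175.9 to 250.2 and 132.4 to 312.5 CPM for Kupffer cells, 197.7 to 304.7 and 219.2 to 360.1 CPM for stellate cells, and 84.9 to 120.9 and 92.5 to 131.9 CPM for sinusoidal endothelium. Enterocyte markers, which would mark a tissue rich in these enzymes, reached at most 0.479 CPM, with *Sis* and *Lct* at 3 counts or fewer in every liver. Of the pancreatic acinar markers *Cpa1* had at most 1 count, and the sum of 13.7 to 23.1 CPM in controls and 15.3 to 26.4 CPM after MI-883 came from *Cela1*. Adipocyte markers summed to 120.2 to 235.6 and 133.8 to 209.6 CPM, nearly all from *Cidec*, while *Adipoq* had at most 4 counts. No marker passed the test (0 of 23 tested in edgeR and in DESeq2, 5 at an unadjusted edgeR P under 0.05). In whole liver, fewer cells of a type and less RNA per cell cannot be told apart.

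Of the 6 members tested, 3 rose after MI-883, *Ces2c*, *Ces2a* and *Ces2g*, and none fell. Across all 13219 genes tested, edgeR called 1.03% in either direction, 0.764% higher and 0.265% lower. DESeq2 called the same 3 members, against 3.5% of genes in either direction and 2.2% higher. The members were chosen with earlier results of these data known, so the shares over all genes are background and no test of the family. *Ces2c* and *Ces2a* about doubled, *Ces2g* rose by a smaller amount, and the means of *Ces2e* differed by less than the spread between livers. The 3 that rose were also the members in which the groups did not overlap, which was the case for 3.98% of the genes tested, 2.05% with the treated livers above and 1.93% with them below. *Ces2b* and *Ces2h* had at most 35 counts in any liver, and *Ces2f* had 1 count in all.

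*Ces2c* encodes an enzyme that hydrolyses acylcarnitines and acylglycerols. Its level was 50.1, 54.2, 50.3, 55.5 and 38.3 CPM in the control livers and 84.4, 94.5, 98.7, 113.7 and 132.4 CPM in the treated livers. The lowest treated liver lay well above the highest control. The mean was 49.7 ± 6.81 CPM in controls and 104.8 ± 18.7 CPM after treatment, giving a log2 fold change of 1.08 (SE 0.127, 95% confidence interval 0.80 to 1.35, edgeR adjusted P = 0.000859, n = 5 per group), or 2.11-fold. It ranked 18 of all genes tested by P value.

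*Ces2a*, a liver hydrolase of acylglycerols and the most abundant member, had 574, 602, 665, 673 and 697 CPM in controls. After MI-883 it had 1082, 1443, 908, 1655 and 1227 CPM. Every treated liver exceeded every control, and the treated livers were spread far more widely than the controls. The means were 642.4 ± 51.6 and 1262.9 ± 294.3 CPM, with a log2 fold change of 0.98 (SE 0.142, interval 0.67 to 1.28, edgeR adjusted P = 0.00463), or 1.97-fold.

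*Ces2g*, a less studied member of the same enzyme family, had 62.9, 51.3, 52.8, 58.1 and 51.4 CPM in controls and 73.7, 74.2, 79.8, 76.9 and 69.1 CPM in treated livers. The groups were separate but closer together than for *Ces2a* and *Ces2c*. The means were 55.3 ± 5.07 and 74.8 ± 3.98 CPM, with a log2 fold change of 0.43 (SE 0.0731, interval 0.28 to 0.59, edgeR adjusted P = 0.0132), or 1.35-fold. In exact two-sided permutation tests of log2(CPM + 0.5), *Ces2a*, *Ces2c* and *Ces2g* each had P = 0.00794, the smallest value that 5 against 5 livers allow.

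*Ces2e* had 374.4, 325.9, 341.4, 449.5 and 368.3 CPM in controls. The treated livers had 399.1, 364.1, 368.2, 347.4 and 373.9 CPM, all within the range of the controls. The means were 371.9 ± 47.7 and 370.5 ± 18.8 CPM, and the log2 fold change was -0.0054 (SE 0.0891, edgeR adjusted P = 0.986). Its 95% interval, -0.20 to 0.19 on the log2 scale or 0.872-fold to 1.14-fold, does not reach the size of the increase in *Ces2g*.

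The remaining members were scarce. *Ces2h* had 31, 14, 21, 28 and 17 counts in controls and 21, 18, 22, 28 and 32 counts after MI-883, with means of 0.744 ± 0.178 and 0.936 ± 0.224 CPM. Its log2 fold change was 0.33 (SE 0.257, interval -0.23 to 0.88, edgeR adjusted P = 0.566). *Ces2b* had 29, 19, 24, 6 and 10 counts in controls and 14, 2, 15, 3 and 35 counts in treated livers. Its counts varied more between livers of a group than between groups, and the log2 fold change was -0.21 (SE 0.584, interval -1.47 to 1.05, edgeR adjusted P = 0.893). A change as large as that of *Ces2a* lies within this interval and was not detectable in *Ces2b* at this depth. *Ces2f* had 1 count in a single treated liver and 0 in the other 9, where 3 counts correspond to about 0.104 CPM in controls and 0.117 CPM in treated livers, and no fold is given.

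**Figure D1:**
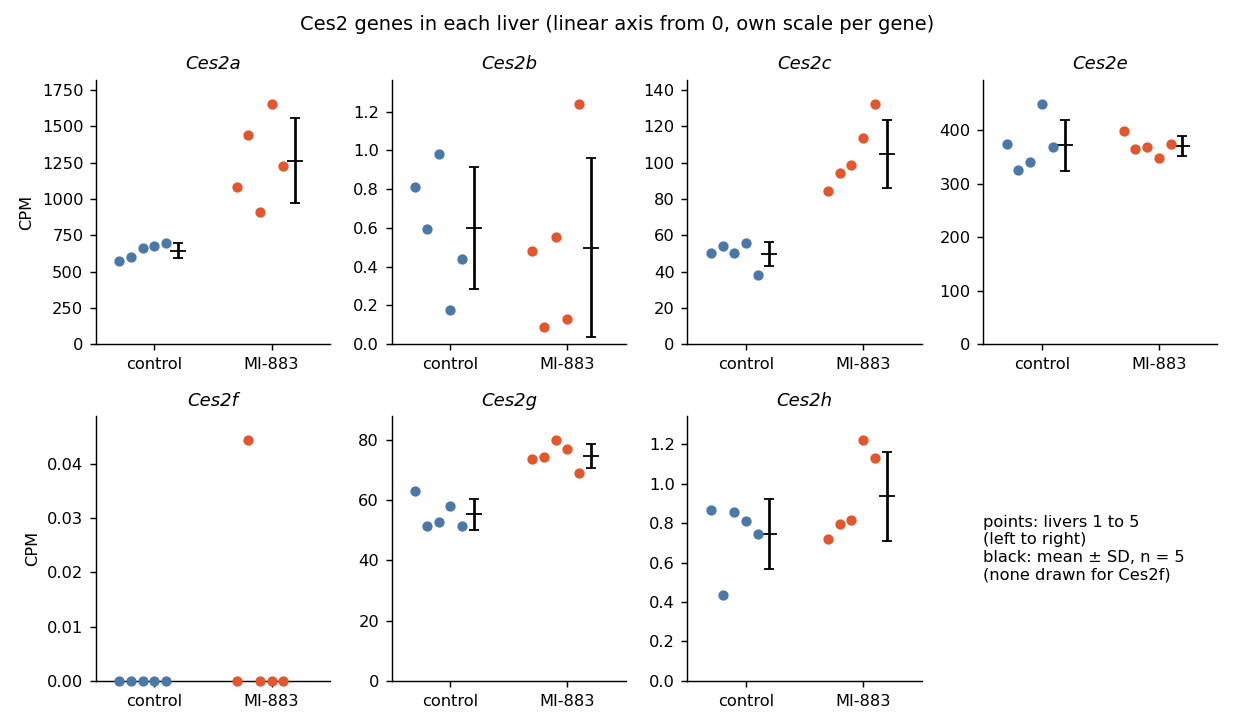
Level of each Ces2 gene in every liver, in CPM, with control and MI-883-treated livers side by side; points are livers 1 to 5 from left to right, black bars are the mean and S.D. of 5 livers (not drawn for *Ces2f*), and each gene has its own axis from 0. *Ces2a*, *Ces2c* and *Ces2g* have separate groups, *Ces2e* spans 325.9 to 449.5 CPM in controls with all treated livers inside, and *Ces2b*, *Ces2f* and *Ces2h* reach at most 1.24 CPM.

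Per kilobase of exon, which allows members to be compared with each other, the order in control livers was *Ces2a* (327.1 CPM per kb), *Ces2e* (137.8), *Ces2c* (25.2), *Ces2g* (19.3), *Ces2h* (0.304), *Ces2b* (0.176) and *Ces2f* (0). The ranges of *Ces2c* and *Ces2g* overlapped in controls, as did those of *Ces2h* and *Ces2b*, and the other neighbours in this order did not overlap, with *Ces2f* at or under the detection limit. After MI-883 the order of the means was the same and the ranges of *Ces2c* and *Ces2g* no longer overlapped, with 643.0 CPM per kb for *Ces2a*, 137.3 for *Ces2e*, 53.2 for *Ces2c*, 26.2 for *Ces2g*, 0.383 for *Ces2h* and 0.146 for *Ces2b*. Among 16576 genes with a known exon length, *Ces2a* stood at rank 223 in controls and rank 105 after MI-883, and *Ces2c* moved from rank 2171 to rank 1198.

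Summed over the family, the level was 509.9 ± 35.3 CPM per kb in controls and 860.1 ± 148.0 CPM per kb after MI-883, a ratio of 1.69. On the CPM scale, *Ces2a* made up 89.4% of the difference in the sum, *Ces2c* 7.94% and *Ces2g* 2.81%. The share of *Ces2a* in the per-kilobase sum was 64.1% ± 2.81 in controls and 74.1% ± 4.66 after MI-883, and that of *Ces2e* was 27.0% ± 2.26 and 16.4% ± 3.32. A share depends on the other members too, and the level of *Ces2e* itself was 137.8 and 137.3 CPM per kb. Together the Ces2 genes made up 12.0% ± 0.634 (range 11.1% to 12.8%) of the per-kilobase level of all carboxylesterases listed in controls and 17.8% ± 0.562 (17.1% to 18.4%) in treated livers.

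**Figure D2:**
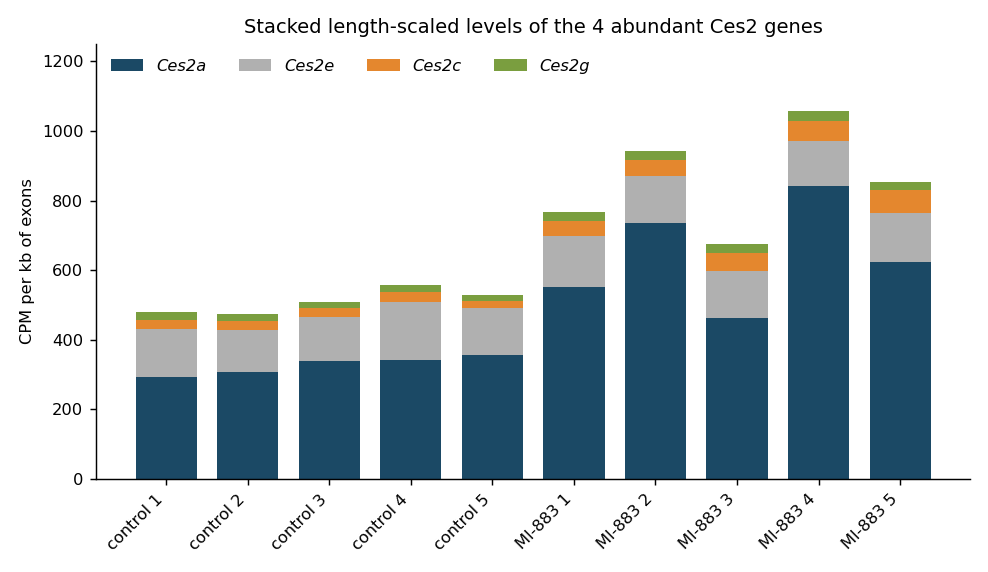
Summed Ces2 level in each liver, in CPM per kilobase of exon, as bars from 0 stacked by the 4 abundant members. The sum is 473.3 to 558.1 in controls and 677.0 to 1056.4 after MI-883, and the added height is almost all *Ces2a*.

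Whether members responded differently was tested directly for each of the 15 pairs among the 6 members tested, by comparing the log2 ratio of the 2 members between groups in an exact two-sided permutation test. After adjustment over the 15 pairs, 7 differed and 6 of these had ratios that did not overlap between groups. The change in *Ces2c* exceeded that in *Ces2e* by 1.06 and that in *Ces2g* by 0.63 on the log2 scale (both exact permutation tests, adjusted P = 0.0198). The change in *Ces2a* exceeded that in *Ces2e* by 0.94, and that in *Ces2e* minus that in *Ces2g* was -0.43 (adjusted P = 0.0198 for both, exact permutation test). The changes in *Ces2a* and *Ces2c* also exceeded that in *Ces2h*, by 0.74 and 0.86 at the same adjusted P. With a pseudocount of 0.1 in place of 0.5, *Ces2a* minus *Ces2h* was 0.65 and did not pass (adjusted P = 0.0595, exact permutation test), and *Ces2h* itself lies near these pseudocounts. *Ces2b* minus *Ces2c* was -1.27 (adjusted P = 0.034, exact permutation test). This call involves the low counts of *Ces2b*. It was lost on leaving out any 1 of 8 livers, that is all but control 4 and treated liver 5 (adjusted P = 0.0595 to 0.068, exact permutation tests). With 1 liver fewer, the exact test has fewer arrangements, and the smallest P it can reach is larger. The loss therefore does not by itself show that the difference depends on single livers. *Ces2a* and *Ces2c* were not shown to differ from each other, with a difference of -0.12 (SE 0.20, adjusted P = 0.587, exact permutation test). *Ces2a* and *Ces2g* differed by 0.51, which did not pass (adjusted P = 0.0794, exact permutation test). That pair passed without treated liver 3 (adjusted P = 0.034, exact permutation test).

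**Figure D3:**
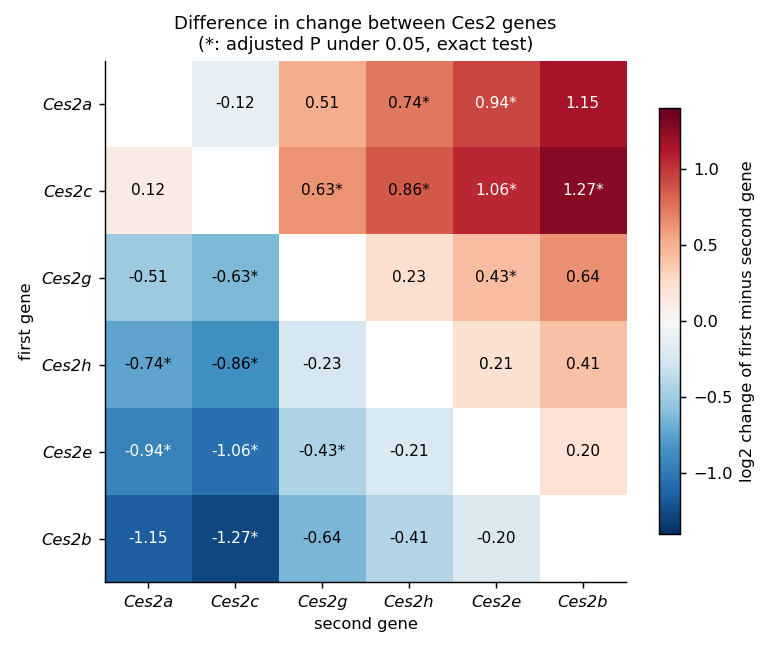
Difference in the response to MI-883 between the members of each of 15 pairs, on the log2 scale of CPM plus 0.5. Each cell gives the change of the gene in its line minus that of the gene in its column, red above 0 and blue below; asterisks mark an adjusted P under 0.05 in the exact permutation test, and *Ces2a* minus *Ces2c* is the palest, at -0.12.

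The neighbourhood of the row was examined within 500 kb on either side. Of 37 other genes listed there, 29 were tested and 0 were called by edgeR or DESeq2, with 2 at an unadjusted edgeR P under 0.05, a median log2 fold change of 0.0195 and a range of -0.45 to 0.52. The median of all genes tested was 0.00451. The nearest listed genes were *Ciao2b*, an iron-sulfur cluster assembly factor before *Ces2a*, with 13.8 ± 1.55 and 13.5 ± 1.34 CPM (log2 fold change -0.03, edgeR adjusted P = 0.910), and *Ces3a*, another carboxylesterase of liver, 28.2 kb after *Ces2h*, with 1829.4 ± 213.1 and 1956.8 ± 271.6 CPM (0.10, edgeR adjusted P = 0.712). *Ces2e* itself lies between *Ces2c* and *Ces2g*, both of which rose.

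**Figure D4:**
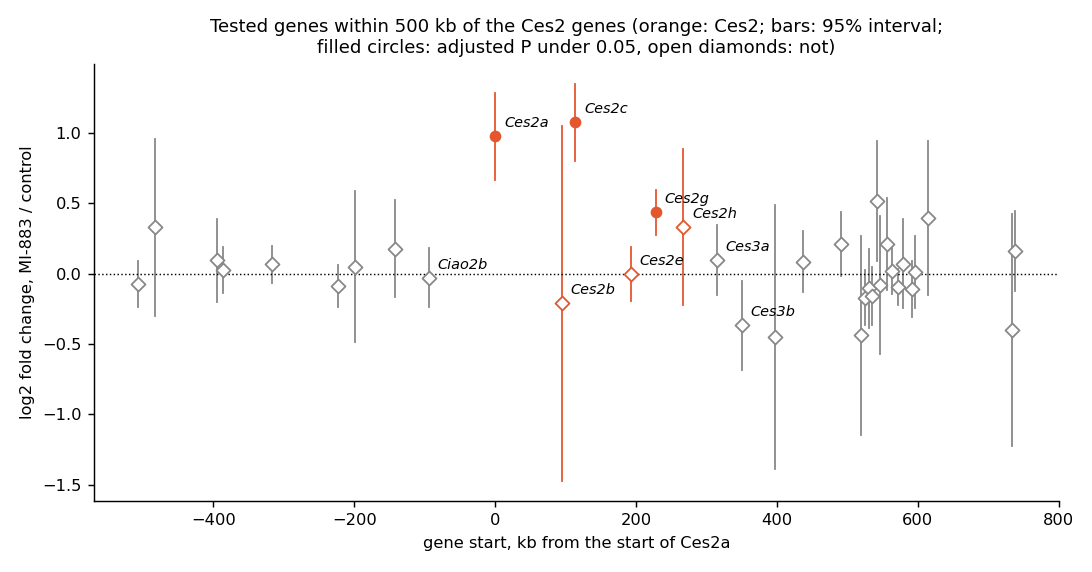
Log2 fold change with 95% confidence interval of each tested gene by its distance in kilobases from the start of *Ces2a*, with Ces2 genes in orange, filled circles for an adjusted P under 0.05 and open diamonds for the others. *Ces2a*, *Ces2c* and *Ces2g* stand above 0 and none of the other genes passed the test.

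Of 12 other carboxylesterases, 11 were listed and 9 tested. None was called higher in edgeR and 1 was called lower, *Ces1b*, with 55.6 ± 8.45 CPM in controls and 35.6 ± 3.41 CPM after MI-883 (log2 fold change -0.64, SE 0.105, edgeR adjusted P = 0.0108, n = 5). The median log2 fold change was -0.10, and 4 had an unadjusted edgeR P under 0.05. The most abundant were *Ces1c*, a plasma esterase (2709.0 and 2535.3 CPM, -0.10, edgeR adjusted P = 0.774), *Ces3a*, and *Ces1d*, a triacylglycerol hydrolase, which had 1241.4 and 1835.5 CPM (0.56, edgeR adjusted P = 0.110). *Ces1d* passed in DESeq2 (adjusted P = 0.0124). Carboxylesterase genes are similar in sequence, and reads that match several of them may have been lost or split. Whether the Ces2 genes and the others differed in response was not tested.

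**Figure D5:**
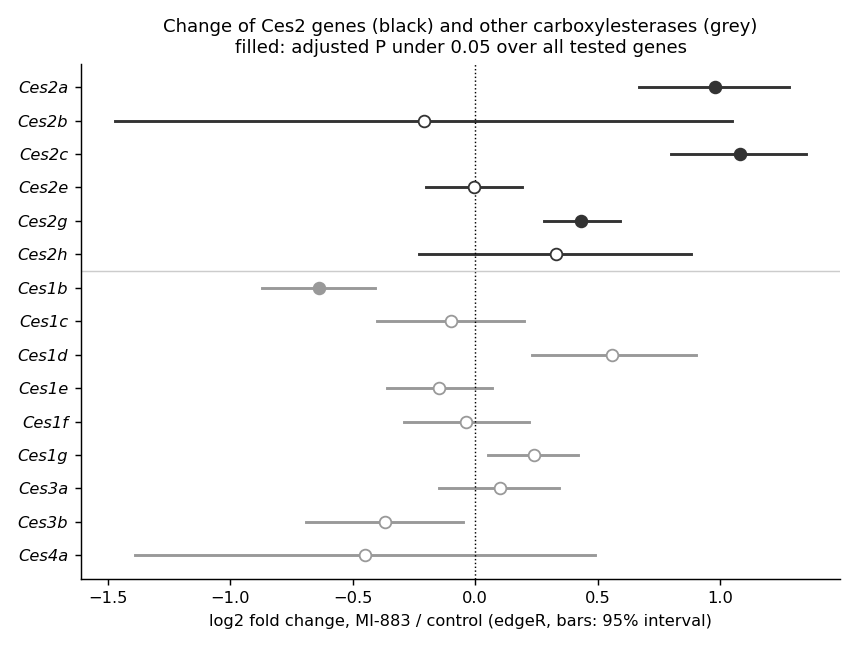
Log2 fold change (MI-883 over control, edgeR) of the 6 Ces2 genes tested, in black, and of 9 other carboxylesterases, in grey, with 95% confidence intervals and filled points for an adjusted P under 0.05. The intervals of *Ces2a*, *Ces2c* and *Ces2g* lie above 0, that of *Ces2e* runs from -0.20 to 0.19, and *Ces1b* is the filled grey point below 0.

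Of 19 other hydrolases of esters and neutral lipids, all tested, 0 were called by edgeR and 3 by DESeq2 (*Lipc*, *Abhd6* and *Pon3*), with 4 at an unadjusted edgeR P under 0.05. Their median log2 fold change was 0.046 and the lowest edgeR adjusted P was 0.0598, for *Lipc*, hepatic lipase, at 165.9 ± 11.8 and 133.7 ± 8.52 CPM. *Pon1*, a plasma lactonase, *Aadac*, an esterase of the endoplasmic reticulum, and *Mgll*, monoacylglycerol lipase, were the most abundant, with log2 fold changes of -0.03, -0.25 and -0.12 (edgeR adjusted P = 0.933, 0.240 and 0.444). Of 13 genes of glycerolipid synthesis, 0 were called by edgeR or DESeq2 and 1 had an unadjusted edgeR P under 0.05. Their median log2 fold change was 0.0101, with *Dgat2*, the final enzyme of triacylglycerol synthesis, at -0.04, *Lpin2*, a phosphatidate phosphatase, at 0.01 and *Gpat4*, a glycerol-phosphate acyltransferase, at -0.19.

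The genes outside the family with the most similar pattern over the 10 livers were searched among 11609 genes by Pearson correlation of log2 CPM. A difference between the groups enters these values, and no test was made. Among 11609 genes and over only 10 livers, the highest r values can be large without a link between the genes. This holds also after the subtraction of group means below. For *Ces2c* these were *Slc13a3*, a dicarboxylate transporter (r = 0.992), *Ackr3*, an atypical chemokine receptor (0.986), and *Gstm2*, a glutathione transferase (0.965). *Cyp2d9*, *Gstm2* and *Gstm3* belong to families of similar genes, which makes their counts uncertain. For *Ces2a* they were *Slc22a4*, an organic cation transporter (0.975), the cytochrome P450 gene *Cyp2d9* (0.968) and *1700067K01Rik* (0.965). For *Ces2g* they were *Entpd7* (0.947), *Prom1* (0.941) and *Gstm3* (0.941), and for *Ces2e* *Cnep1r1* (0.89), *Umad1* (0.871) and *Zfand5* (0.869). After subtraction of each group's mean, none of the genes named for *Ces2a* and *Ces2g* was among their closest 3, which became *Serpinf1* (0.973), *Smarcd2* (0.97) and *Gpt* (0.967) for *Ces2a* and *Caprin2* (0.913), *Pde6d* (0.906) and *Sp4* (0.877) for *Ces2g*. Of those named for *Ces2c* only *Slc13a3* stayed (0.937), beside *Meis1* (0.927) and *Nacc2* (0.918), and of those named for *Ces2e* only *Umad1* (0.925), beside *Matr3* (0.935) and *Mlx* (0.908). Among the 4 abundant members themselves, after the same subtraction, r was 0.137 for *Ces2a* with *Ces2c*, 0.022 for *Ces2c* with *Ces2g* and -0.245 for *Ces2a* with *Ces2g*. With *Ces2e* it was -0.127 for *Ces2a*, -0.054 for *Ces2c* and 0.374 for *Ces2g*.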

How the data were processed

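Liver RNA from 10 animals was sequenced as directional paired-end libraries with reads of 150 bases. The authors trimmed reads (fastp 0.23.0, per the labels), aligned them with STAR to mm10 and counted them with featureCounts; the deposited values are raw counts per gene. Other versions, the annotation and the strand setting were not given in the sources used here. Of 16647 genes, 13219 reached a total of 60 counts across all livers and were tested with edgeR 4.0.16 (R 4.3.3; TMM scaling, quasi-likelihood test, Benjamini-Hochberg adjustment over all genes tested, threshold 0.05), MI-883 against control, 5 separate animals each. DESeq2 1.42.0, other scalings and filters, a surrogate variable (sva 3.50.0), a replicate block and leaving out each liver were alternatives. CPM used TMM-scaled totals. Member pairs were compared on log2(CPM + 0.5) with exact permutation tests (SciPy 1.17.1), adjusted over 15 pairs. Symbols came from RefSeq (16644 matched). 3 counts are about 0.11 CPM, which sets the detection limit for counting error only. The edgeR fit was tested on simulated counts.

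Genes were named as follows: all members, list genes passing the test and otherwise up to 3 with the highest level, the direct neighbours on the chromosome, and the 3 genes most like each member with a mean of at least 1 CPM. The members and lists were chosen with earlier results of these data known.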

Additional observations from a re-analysis of the deposited data

Results flagged for a closer look

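The level of *Ces2h* in 1 control liver, 0.437 CPM, stood below the other 4 controls, of which the nearest had 0.746 CPM. The gap was 0.72 of the range of the group. It corresponds to 14 counts, and 1 of 44 groups of values was set apart in this way, where 2.2 would be expected by chance.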

How the results depend on the processing

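*Ces2a*, *Ces2c* and *Ces2g* were called higher in all 18 alternatives, with log2 fold changes of 0.86 to 1.07, 0.98 to 1.15 and 0.41 to 0.49 and highest adjusted P values of 0.0168, 0.00759 and 0.0411. *Ces2e* was not called in any and its log2 fold change turned positive with total-count scaling (0.0427), with 60 counts required in every liver (0.0128) and with the replicate block (0.00246), and ranged from -0.0433 to 0.0725 when single livers were left out. *Ces2b* ranged from -0.86 to 0.0379 without single livers; *Ces2b* and *Ces2h* had no value with 60 counts in every liver.

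The number of genes called was 463 with DESeq2, 423 with a surrogate variable and 89 with the replicate block, and 62 to 208 without single livers: 208 without control 1, 87, 81, 75 and 68 without controls 2 to 5, and 70 and 62 without MI-883 2 and 5. Calls among other carboxylesterases rose from 1 to 2 with DESeq2, total counts and the surrogate variable, adding *Ces1d*. Calls among other hydrolases were 3 with DESeq2, 1 with total counts, 2 with the surrogate variable and 0 to 1 without single livers (*Lipc* without control 1, *Abhd6* without MI-883 1). The values gave no sign that the replicate numbers pair the animals, though they cannot exclude it. Same-numbered livers deviated together with r from -0.121 to 0.36 and none correlated best with its own number. The replicate block left 3 members called, at adjusted P = 0.0113, 0.00759 and 0.0311 (edgeR).

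Of the member pairs, 5 to 10 differed over the alternatives. *Ces2a* minus *Ces2c* ranged from -0.21 to 0.00361 without single livers, the positive value without control 5. *Ces2b* minus *Ces2c* lost its call with a pseudocount of 0.1 and without 8 of 10 single livers, *Ces2a* minus *Ces2h* with a pseudocount of 0.1 (0.0595), and *Ces2a* minus *Ces2g* gained one without MI-883 3 (0.034). With a pseudocount of 2, *Ces2a* minus *Ces2b* (1.01), *Ces2b* minus *Ces2g* (-0.49) and *Ces2g* minus *Ces2h* (0.33) passed. Depth limits *Ces2b*, *Ces2f* and *Ces2h*. The causes were not tested.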
